A study of Mus musculus with 9 samples.

Results

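The 73 genes described here encode the retromer, sorting nexin, ESCRT and vacuolar protein sorting (VPS) proteins that move membrane proteins through endosomes. They are the entries, among 46517 genes of a log2 FPKM table, whose symbols begin with Vps, Snx or Chmp and a number, together with Hgs, Stam, Stam2 and Tsg101. By known role, 34 belong to the retromer and the sorting nexins, 21 to ESCRT, 13 to the complexes that tether membranes, and 5 are other Vps genes. The last class includes Vps72, whose protein is a subunit of chromatin complexes and shares only the prefix. The values come from neutrophils sorted as Dapi-, CD45+, Lin- (CD3, B220 and NK1.1), Ly6G+ and Ly6C+ from the bone marrow (BM), blood and pancreatic tumors of C57BL/6 mice. All animals were OT mice, in which the pancreas had received cells of a luciferase-expressing mouse pancreatic ductal adenocarcinoma line 27 days before the sort. Each compartment has 3 libraries from independent experiments, each library from a pool of 5 mice, and the BM cells are labelled as high in Ly6G. No tumor-free animals are compared here, so BM and blood are those of tumor-bearing mice. The question was how mature neutrophils differ between the 3 sites.

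Cargo that reaches an endosome is either returned to the Golgi and the cell surface or sent to the lysosome. Retromer and the sorting nexins, which bind phosphoinositide lipids through PX domains, form the tubules that return it. The ESCRT complexes gather ubiquitin-tagged receptors and pinch them into vesicles inside the endosome, and the HOPS, CORVET, GARP and EARP complexes tether membranes before they fuse. Neutrophils depend on this system for granule formation, receptor turnover and phagosome maturation.

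The libraries held 7108871 to 7949367 reads in BM, 4580807 to 6830374 in blood and 5446499 to 6969557 in tumor, as recovered from the steps between the deposited values. The Pearson correlation of log2 values was 0.889 to 0.954 within a compartment and 0.706 to 0.892 between compartments. The 10 neutrophil markers together took 87666 to 95776 RPM (reads scaled to 1e6 of library size) in BM, 38809 to 41014 in blood and 11908 to 14477 in tumor, and none of the 10 was at 0 in all libraries. The members of this list did not move together. Csf3r had 13802 to 18048 reads in BM, 52750 to 72754 in blood and 17234 to 22928 in tumor. Cxcr2 had 18992 to 21428 reads in BM, 27073 to 46509 in blood and 9497 to 12093 in tumor. The rest had fewer reads in blood than in BM, among them Ltf, with 233192 to 243442 in BM, 2624 to 2846 in blood and 16196 to 26540 in tumor. The 8 markers of tumor epithelium took 10.1 to 13.2 RPM in BM, 25.4 to 172 in blood and 2556 to 4838 in tumor, and all 8 were higher in each tumor library than in any other library. The value of 172 was that of blood replicate 2, and the other blood libraries had at most 27.6 RPM. Fibroblast markers took 946 to 1094 RPM in tumor and at most 9.72 elsewhere. Acinar markers took 376 to 1547 RPM in tumor and at most 8.42 elsewhere. Platelet markers took 489 to 676 RPM in blood against at most 11.1 elsewhere, and macrophage markers 1286 to 1463 against at most 452. Red cell markers took 280 to 567 RPM in blood and at most 126 elsewhere. Lymphocyte markers took 70.6 to 121 RPM in blood and at most 51.1 elsewhere. In the lymphocyte list, Nkg7 had more reads in BM (86 to 119) than in blood (17 to 47). In the macrophage list, Csf1r (4796 to 6885 reads in blood, 1808 to 2123 in BM) and Adgre1 (838 to 1256 and 350 to 418) were higher in blood than in BM. C1qa (3 to 12 and 19 to 29) and C1qc (0 to 11 and 17 to 49) were lower. C1qb (19 to 29 and 29 to 51) and Mrc1 (6 to 13 and 13 to 31) had no more reads in blood than in BM. The part of the cells that these lists mark in the results below was not tested. In pooled cells, a different number of cells of a type and a different amount of RNA per cell cannot be told apart.

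Summed over the members, the endosomal sorting genes took a smaller share of the reads in blood than in the other compartments. The share was 0.452% to 0.473% in BM, 0.358% to 0.397% in blood and 0.468% to 0.521% in tumor. On the authors' scaled library sizes the members took 5366 to 5676 RPM in BM, 4147 to 4718 in blood and 4106 to 4507 in tumor. The order of blood and tumor depended on the library size used. The authors' scaling multiplied the library sizes by 0.840 ± 0.043 (SD, n = 3) in BM, 0.841 ± 0.023 in blood and 1.15 ± 0.069 in tumor, and plain totals raise every tumor fold change by 0.449 (against blood) or 0.452 (against BM) on the log2 scale.

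Of the 73 members, 71 had at least 5 reads in a library and were tested with limma among 17714 genes. Vps37d had 0 reads in every library, and Snx31 had 3 reads in BM replicate 2 and none elsewhere. Snx24 and Snx25 reached 5 reads only in tumor libraries, so the filter admitted them through the group where they were high. Both are counted below as higher in tumor than in blood, and Snx24 also as higher than in BM. Between compartments, 47 of the 71 (66.2%) differed in limma's F-test at an adjusted p under 0.05, close to the 63.8% of all genes tested. In tumor against blood, 16 members (22.5%) were higher, where 33.8% of all genes were, and 17 (23.9%) were lower, where 21.1% of all genes were. In tumor against BM, 11 (15.5%) were higher against 26.9% of all genes, and 23 (32.4%) were lower against 19.5%. In blood against BM, 3 (4.23%) were higher against 13.7%, and 22 (31.0%) were lower against 18.1%. The median log2 fold change of the members was 0.09 in tumor against blood, where all genes had 0.50, and -0.22 in tumor against BM, where all genes had 0.29. With plain library totals the split became 34 higher and 7 lower against blood and 24 higher and 11 lower against BM, and the medians 0.54 and 0.23, where all genes had 0.95 and 0.74. Of the 17714 genes, these totals called 7516 higher and 2576 lower against blood, and 6603 higher and 2234 lower against BM. With quantile normalization the members split into 10 higher and 23 lower against blood, and 8 higher and 29 lower against BM. Of the 17714 genes, 4242 were then higher and 5337 lower against blood, and 3541 higher and 4941 lower against BM. In blood against BM the median was -0.32 for the members and about 0 for all genes, and plain totals moved that contrast by 0.003.

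**Figure D1:**
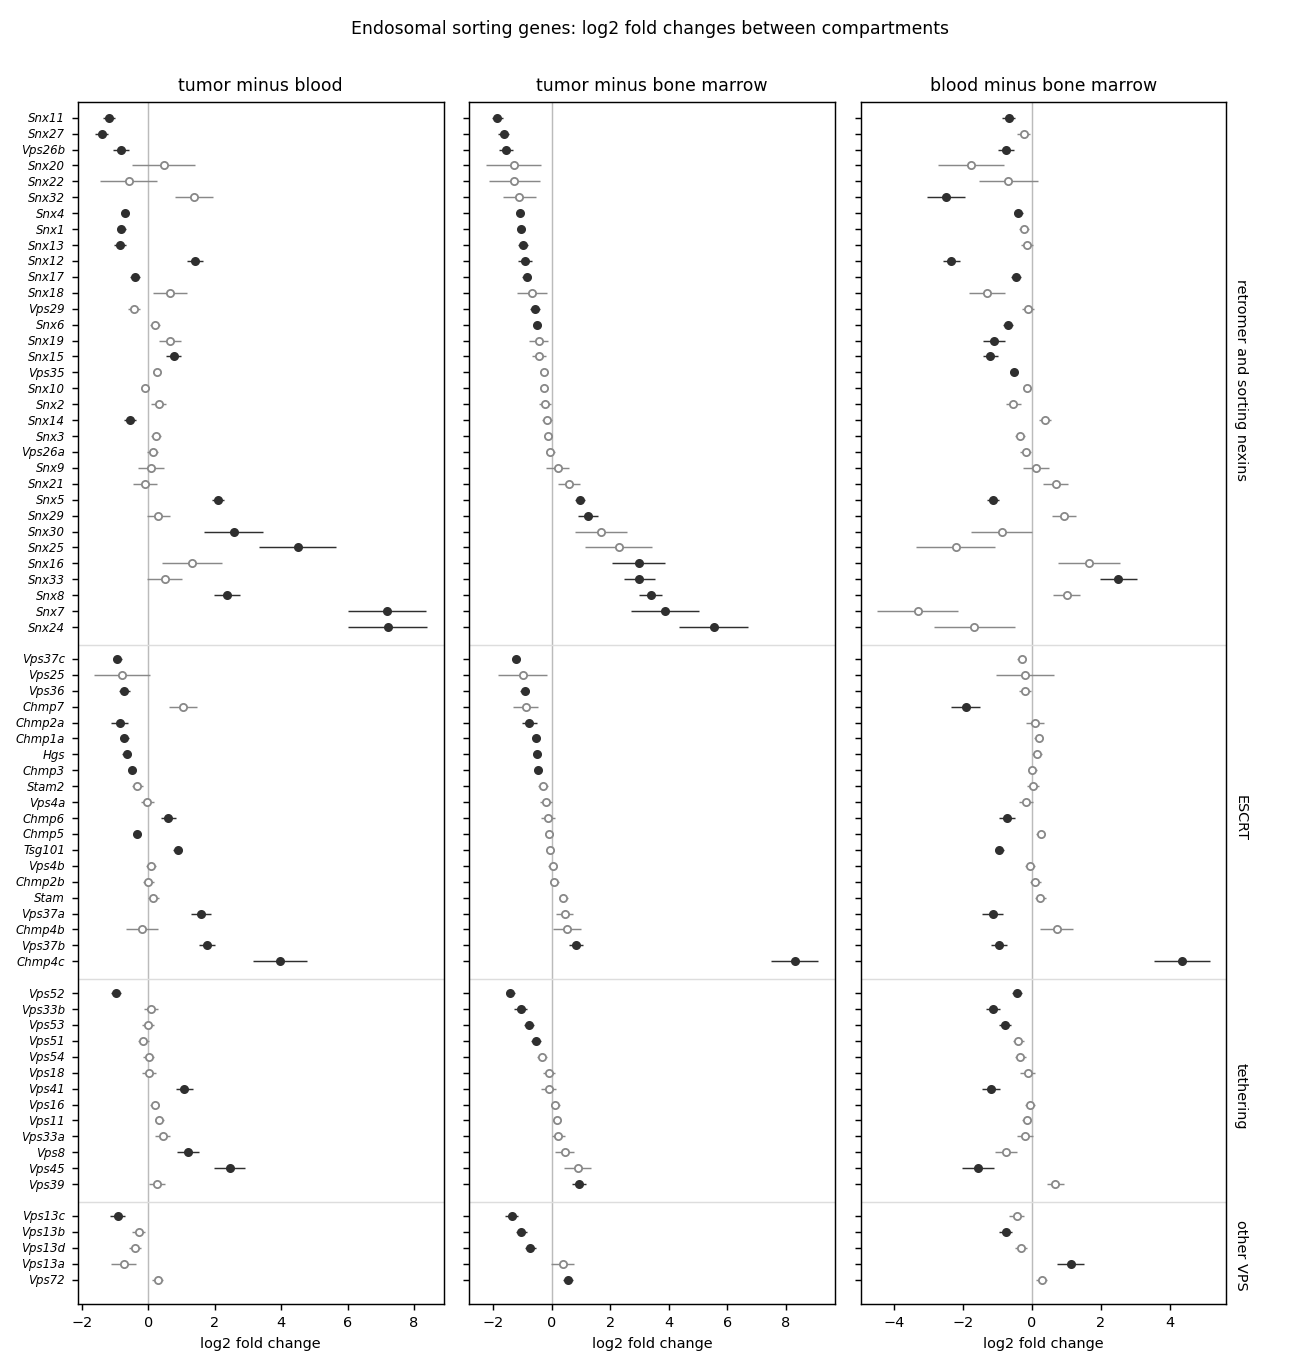
Log2 fold changes (points) with standard errors (bars) of the 71 members tested, by class, for the 3 contrasts between compartments. Filled points have an adjusted p under 0.05 in limma; the members at the far right of the tumor panels, Snx7, Snx24 and Chmp4c, had few or no reads in bone marrow or blood, so their fitted values have wide errors.

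Members that were lower in tumor than in both other compartments numbered 15 (21.1%, against 13.2% of all genes), and those higher than in both numbered 6 (8.45%, against 20.8%). The lower group held Vps26b, Snx1, Snx4, Snx11, Snx13, Snx17 and Snx27 of the retromer and sorting nexins, Hgs, Vps36, Vps37c, Chmp1a, Chmp2a and Chmp3 of ESCRT, the tether subunit Vps52 and the lipid transfer gene Vps13c. The higher group was Snx5, Snx7, Snx8, Snx24, Chmp4c and Vps37b, of which Snx24 entered the test only through its tumor reads. In each group some calls rested on single libraries, as given with Vps26b, Snx17, Chmp2a, Snx7 and Vps37b below. With plain totals, 7 of the members kept as lower (Snx1, Snx4, Snx11, Snx13, Snx27, Vps37c and Vps52) and 18 members counted as higher. Plain totals raised the calls over all genes too, from 5989 to 7516 higher against blood and from 4762 to 6603 against BM. All genes were not counted against both with these totals, so the 18 and 7 have no share beside them.

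The retromer core, a trimer of VPS26, VPS29 and VPS35 that selects cargo on the endosome, did not move as a unit. Vps26b (chr9:27007771-27030065 on GRCm38, minus strand) had log2 FPKM of 3.01, 3.19 and 2.78 in BM, 1.69, 2.57 and 2.48 in blood, and 1.10, 1.53 and 1.63 in tumor. The 3 groups did not overlap, with BM highest and tumor lowest. The log2 fold change was -1.57 ± 0.24 (SE, adjusted p = 2.91e-04) in tumor against BM, -0.83 (adjusted p = 0.0118) in tumor against blood and -0.74 (adjusted p = 0.0332) in blood against BM. The call against BM held in every alternative, whereas that against blood was lost with plain totals (-0.38) and without blood replicate 2 (-0.66, adjusted p = 0.0602) or tumor replicate 1 (-0.67, adjusted p = 0.0732), and that of blood against BM held in 10 of 19 alternatives. Its paralog Vps26a (chr10:62455235-62486805, minus strand), an alternative subunit of the same trimer, had 1.94, 1.88 and 1.91 in BM, 1.82, 1.47 and 1.90 in blood, and 1.86, 2.08 and 1.63 in tumor. These groups overlapped in every comparison, and the log2 fold change in tumor against BM was -0.05 ± 0.15 (SE, adjusted p = 0.805). With plain totals it was 0.40 (adjusted p = 0.0431). The ratio of Vps26a to Vps26b, on reads per exon kilobase, went from 1.05 in BM to 1.55 in blood and 3.02 in tumor.

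Vps35, the scaffold of the trimer, had log2 FPKM of 3.03, 3.10 and 3.15 in BM, 2.45, 2.65 and 2.60 in blood, and 2.81, 2.80 and 2.86 in tumor. Blood was lowest and BM highest without overlap, and only blood against BM passed the test, at -0.53 ± 0.10 (SE, adjusted p = 0.00259). The tumor contrasts were 0.26 (adjusted p = 0.0513) against blood, which passed at 0.71 with plain totals, and -0.27 (adjusted p = 0.0509) against BM. Vps29, the small subunit that docks regulators of the trimer, had 2.35, 2.53 and 2.12 in BM, 2.23, 2.26 and 2.15 in blood, and 2.06, 1.74 and 1.53 in tumor. Every tumor library was below the others, with a log2 fold change of -0.56 ± 0.17 (SE, adjusted p = 0.0222) against BM and -0.44 (adjusted p = 0.0538) against blood. The call against BM was lost with plain totals and without BM replicate 1 or 2 or tumor replicate 2 or 3 (adjusted p = 0.0556 to 0.0889).

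The promoters of both VPS26 genes are shown because the paralogs behaved differently. They are the 250 bases before the annotated RefSeq start (GRCm38.p6, minus strand), and neither window holds a base of the gene's own exons in GENCODE M21. Capitals mark CACGTG, an E-box that is the core of the element bound by the TFEB family, regulators of lysosomal genes.
Vps26a, chr10:62486806-62487055: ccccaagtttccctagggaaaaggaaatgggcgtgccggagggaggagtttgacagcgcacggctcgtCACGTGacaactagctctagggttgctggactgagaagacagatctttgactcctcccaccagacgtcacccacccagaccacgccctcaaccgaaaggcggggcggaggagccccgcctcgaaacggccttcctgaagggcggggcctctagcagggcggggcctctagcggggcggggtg
Vps26b, chr9:27030095-27030344: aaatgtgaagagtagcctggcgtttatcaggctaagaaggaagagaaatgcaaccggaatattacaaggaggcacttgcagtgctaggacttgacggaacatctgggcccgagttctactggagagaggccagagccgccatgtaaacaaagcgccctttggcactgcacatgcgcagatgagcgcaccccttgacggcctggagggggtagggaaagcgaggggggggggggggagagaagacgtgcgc
The Vps26a window held CACGTG once, with its first base 182 bases before the start, and 4 matches to GGGCGG on either strand. The Vps26b window held neither, and its GC content was 57.2% against 64.4% for Vps26a. A match of letters is a description and does not show that a factor binds there.

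Among the sorting nexins that work with retromer, tumor libraries held more Snx5 and less Snx1 than either BM or blood, and Snx6 was lower in blood and in tumor than in BM. SNX5 and SNX6 pair with SNX1 or SNX2 into the dimers that bend membrane into tubules. Snx5 (chr2:144250123-144270906, minus strand) had log2 FPKM of 1.20, 1.17 and 1.65 in BM, 0.36, 0.07 and 0.23 in blood, and 2.17, 2.19 and 2.56 in tumor. Blood was lowest, BM intermediate and tumor highest, with no overlap between the groups. The log2 fold change was 2.09 ± 0.18 (SE, adjusted p = 5.32e-06) in tumor against blood, 0.96 (adjusted p = 0.00124) in tumor against BM and -1.12 (adjusted p = 8.14e-04) in blood against BM. Its level was 12.8 ± 2.5 RPM per exon kilobase for BM, 5.80 ± 0.57 for blood and 24.8 ± 4.0 for tumor libraries (SD, n = 3 for each mean). All 3 calls held in each of 19 alternative analyses.

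Snx6 had 58.4 RPM per exon kilobase in BM, 36.0 in blood and 41.6 in tumor, and was lower in blood (log2 fold change -0.70, adjusted p = 0.00329) and in tumor (-0.50, adjusted p = 0.0137, lost with plain totals and, at an adjusted p of 0.0536, without BM replicate 3) than in BM. Blood and tumor libraries overlapped for Snx6 (log2 fold change 0.20, adjusted p = 0.248). The ratio of Snx5 to Snx6 was thus 0.22 in BM, 0.16 in blood and 0.60 in tumor. Snx1 fell in tumor against both compartments. Its log2 FPKM was 1.74 to 1.81 in BM, 1.43 to 1.63 in blood and 0.47 to 0.88 in tumor, and its log2 fold change was -1.05 ± 0.13 (SE, adjusted p = 1.03e-04) against BM and -0.82 (adjusted p = 4.69e-04) against blood. Snx2 had -0.23 (adjusted p = 0.417) against BM and 0.31 (adjusted p = 0.245) against blood, the latter passing at 0.76 with plain totals. Per exon kilobase Snx1 exceeded Snx2 by 1.31 times in BM and 1.62 times in blood, whereas in tumor the ratio was 0.74.

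Snx12, which encodes a PX-domain protein close in sequence to SNX3, was lowest in blood. Its log2 FPKM was -1.76, -1.49 and -1.36 in BM, -4.18, -3.46 and -3.98 in blood, and -2.76, -2.17 and -2.44 in tumor, from 27 to 323 reads a library. The groups did not overlap, with tumor between blood and BM. The log2 fold change was -2.34 ± 0.24 (SE, adjusted p = 4.96e-05) in blood against BM, 1.42 (adjusted p = 6.05e-04) in tumor against blood and -0.92 (adjusted p = 0.00985) in tumor against BM, the last lost with plain totals. Snx3, which directs retromer to Wntless, was the member with the highest level per exon kilobase in every compartment, at 137 in BM, 108 in blood and 127 in tumor, and passed no contrast on the authors' scaling. The ratio of Snx3 to Snx12 was 9.40 in BM, 37.3 in blood and 16.3 in tumor. Snx27, whose PDZ domain brings surface receptors to retromer, was named after its values were seen. It had 0.26, 0.41 and 0.22 in BM, 0.06, 0.20 and -0.09 in blood, and -1.33, -0.94 and -1.76 in tumor, a log2 fold change of -1.64 ± 0.20 (SE, adjusted p = 6.00e-05) against BM and -1.40 (adjusted p = 1.45e-04) against blood. The tumor libraries lay well below the rest, whereas blood against BM gave -0.24 (adjusted p = 0.403).

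**Figure D2:**
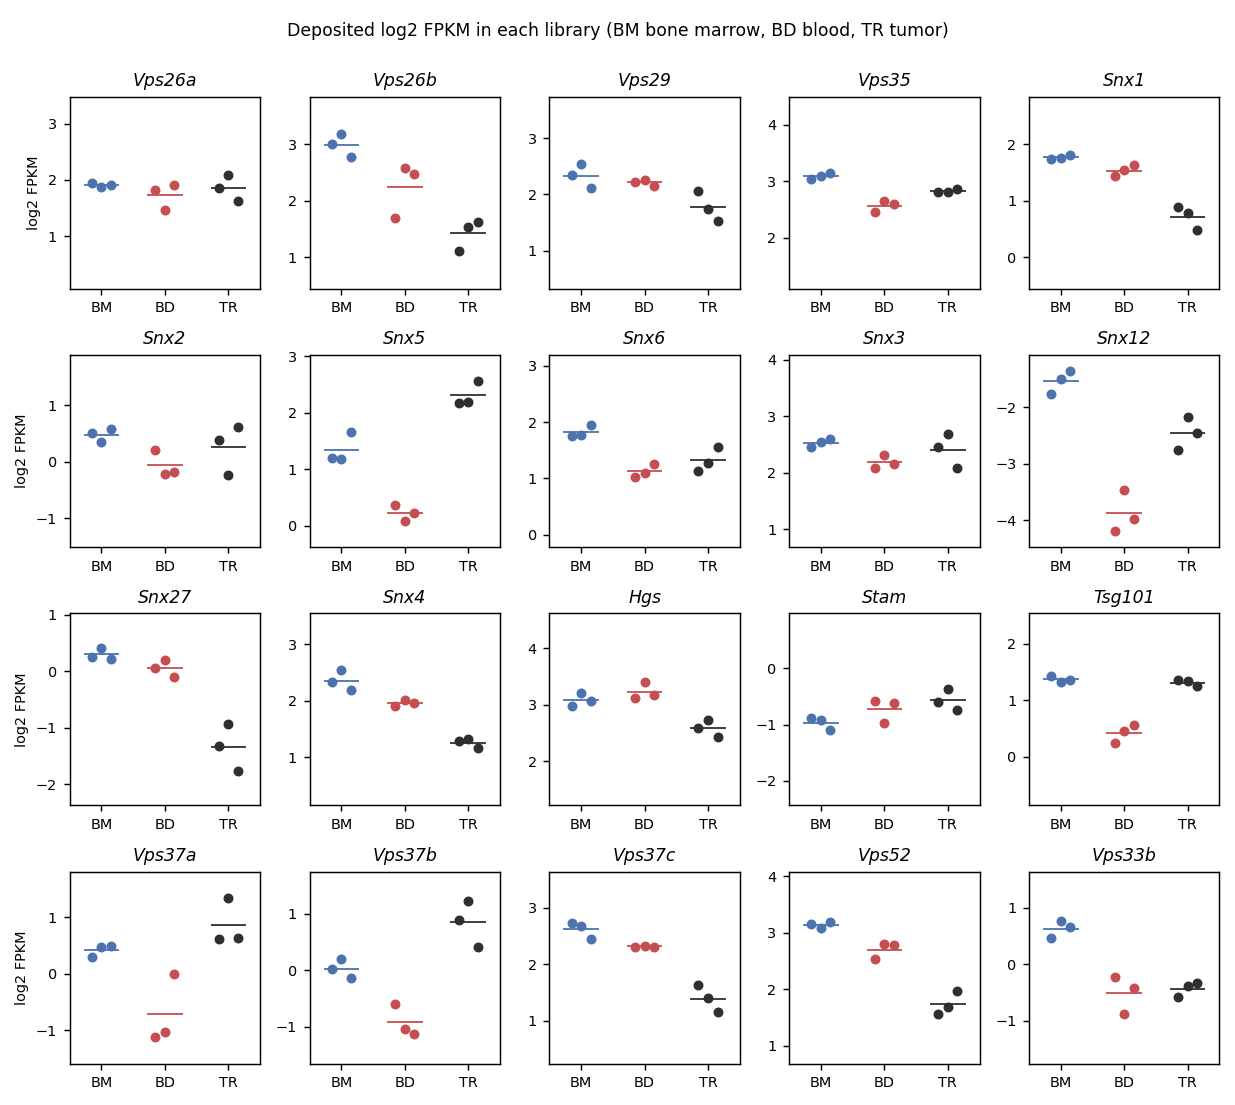
Deposited log2 FPKM of 20 members in each of the 9 libraries, 3 per compartment, with the group mean as a line; every panel spans the same range of log2 units. Snx5, Vps37b and Tsg101 are lowest in blood, whereas Snx1, Snx4, Snx27, Vps26b, Vps37c and Vps52 are lowest in tumor.

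Of the sorting nexins outside retromer, Snx4 and Snx11 had the smallest adjusted p in the F-test (6.23e-05 and 2.50e-05). SNX4 recycles transferrin receptor and SNAREs. Its log2 FPKM was 2.32, 2.54 and 2.19 in BM, 1.90, 2.00 and 1.96 in blood, and 1.28, 1.32 and 1.15 in tumor. The groups fell in that order without overlap, and the log2 fold change was -1.10 ± 0.12 (SE, adjusted p = 3.49e-05) in tumor against BM and -0.70 (adjusted p = 5.92e-04) in tumor against blood. Snx11 had 2.63, 2.60 and 2.49 in BM, 1.81, 2.10 and 1.77 in blood, and 0.84, 0.41 and 0.89 in tumor. It followed the same order with a larger step, at -1.86 ± 0.18 (SE, adjusted p = 1.43e-05) against BM and -1.18 (adjusted p = 2.60e-04) against blood. Of its exon bases, 16.2% lie in Gm11537 on the other strand, so some of its reads could belong to that gene. Snx13 had -0.99 (adjusted p = 8.81e-04) against BM. Snx17, a recycling adaptor for LRP1 and integrins, had -0.85 (adjusted p = 9.65e-04) against BM, a call lost with plain totals (-0.40, adjusted p = 0.0745). Against blood it had -0.39 (adjusted p = 0.0495), a call held in 3 of 19 alternatives. That call was lost without any 1 of the blood or BM replicates or tumor replicate 1 or 2 (adjusted p = 0.0587 to 0.115), and with plain totals the fold change turned to 0.06.

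The sorting nexins that were higher in tumor were mostly scarce elsewhere. Snx8, which takes part in endosome to Golgi transport, had 24, 20 and 33 reads in BM, 63, 39 and 22 in blood, and 250, 355 and 308 in tumor. Its log2 fold change was 3.38 ± 0.40 (SE, adjusted p = 5.28e-05) against BM and 2.37 (adjusted p = 4.81e-04) against blood. Snx24 had 6 reads over the BM libraries, 1 over the blood libraries and 216 over the tumor libraries, a ratio of 31.5 to BM (95% counting interval 14.2 to 86.7) and of 142 to blood (25.1 to 5615). Snx7 had 24, 4 and 349 reads in the same order, a ratio of 12.7 to BM (8.41 to 20.1) and 57.2 to blood (22.1 to 211). In limma the Snx7 call against blood held in all 18 alternatives that tested it. Its call against BM (adjusted p = 0.0192) held in 11 of 18, being lost without BM replicate 1 or 2 or any 1 tumor replicate (adjusted p = 0.0502 to 0.101). Snx25 had 1, 3 and 3 reads in BM, 0, 2 and 0 in blood, and 4, 15 and 34 in tumor, so that most of its tumor reads came from 1 library. Snx24 and Snx25 reached the 5 reads needed for testing only in tumor, the group where they were high. Their limma calls in tumor are therefore no support for a difference. For Snx25, tumor against BM did not pass even so (adjusted p = 0.126 in limma). These intervals are exact, cover counting error only, and rest on scaled library sizes. Beside them stand the epithelial markers, at 2556 to 4838 RPM in tumor, 172 RPM in blood replicate 2 and at most 27.6 RPM in the other libraries. All blood reads of Snx7, Snx24 and Snx25 were in blood replicate 2. The part of other cells in these genes was not tested. Snx33 differed from the others in this group, since it had 5 to 19 reads in BM and already 45 to 51 in blood, with 52 to 153 in tumor. Its log2 fold change was 2.5 (adjusted p = 0.00456) in blood and 2.99 (adjusted p = 9.00e-04) in tumor against BM, and 0.49 (adjusted p = 0.450) in tumor against blood.

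The first ESCRT complex, ESCRT-0, binds ubiquitinated cargo through HRS, the product of Hgs, and STAM. Hgs had log2 FPKM of 2.99, 3.22 and 3.07 in BM, 3.12, 3.41 and 3.18 in blood, and 2.59, 2.73 and 2.44 in tumor. Tumor was lowest without overlap, and the log2 fold change was -0.65 ± 0.13 (SE, adjusted p = 0.00173) against blood and -0.50 (adjusted p = 0.00915) against BM. With plain totals both calls were lost, at -0.20 and -0.05, and 97.2% of its exon bases are shared with a second annotated entry named Hgs. Stam had -0.89, -0.92 and -1.10 in BM, -0.58, -0.98 and -0.62 in blood, and -0.60, -0.37 and -0.74 in tumor. Its tumor libraries lay above BM, but the difference of 0.40 ± 0.17 (SE) had an adjusted p of 0.0712, and passed at 0.85 (adjusted p = 0.0013) with plain totals. Stam2 had 0.32 to 0.63 in BM, 0.38 to 0.67 in blood and -0.09 to 0.44 in tumor, and passed no contrast.

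In ESCRT-I, the alternative VPS37 subunits went opposite ways. TSG101 is a core subunit of this complex, and a VPS37 protein is another of its subunits. Tsg101 (chr7:46888949-46919969, minus strand) had log2 FPKM of 1.43, 1.32 and 1.36 in BM, 0.24, 0.45 and 0.56 in blood, and 1.35, 1.34 and 1.24 in tumor. Blood stood below both other compartments, at -0.95 ± 0.13 (SE, adjusted p = 3.18e-04) against BM, and tumor was 0.89 (adjusted p = 2.08e-04) above blood and -0.06 (adjusted p = 0.741) from BM, or 0.39 (adjusted p = 0.0281) above BM with plain totals. Vps37b had 0.02, 0.20 and -0.14 in BM, -0.60, -1.04 and -1.13 in blood, and 0.90, 1.22 and 0.42 in tumor. It followed the same dip in blood and went above BM in tumor, with log2 fold changes of 1.77 ± 0.24 (SE, adjusted p = 1.04e-04) against blood and 0.83 (adjusted p = 0.0143) against BM. The call against BM was lost without BM replicate 3 or tumor replicate 1 or 2 (adjusted p = 0.0515 to 0.0566), and 32.9% of its exon bases lie in genes on the other strand, among them Hip1r.

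Vps37c (chr19:10688735-10714627, plus strand) went the opposite way. It had 2.72, 2.69 and 2.45 in BM, 2.31, 2.33 and 2.31 in blood, and 1.63, 1.40 and 1.15 in tumor. The log2 fold change was -1.23 ± 0.14 (SE, adjusted p = 5.00e-05) against BM and -0.93 (adjusted p = 2.81e-04) against blood, and both held in every alternative analysis. The ratio of Vps37b to Vps37c per exon kilobase was 0.17 in BM, 0.11 in blood and 0.72 in tumor. Vps37a, with 310 to 367 reads in BM, 71 to 184 in blood and 374 to 754 in tumor, was higher in tumor than in blood by 1.58 (adjusted p = 0.00105) and differed from BM by 0.44 (adjusted p = 0.251).

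In ESCRT-II and ESCRT-III, which shape and cut the vesicle neck, most of the called members were lower in tumor on the authors' scaling only. Of the 9 ESCRT-III members, 4 were lower and 2 higher in tumor than in blood (21.1% and 33.8% of all genes). In tumor against BM, 3 were lower and 1 higher (19.5% and 26.9% of all genes). Vps36 was lower than BM by a log2 fold change of -0.93 (adjusted p = 9.83e-04), Chmp1a by -0.53 (adjusted p = 0.00585), Chmp2a by -0.77 (adjusted p = 0.0315) and Chmp3 by -0.48 (adjusted p = 0.0111), and all 4 calls were lost with plain totals. Their calls against blood were lost too, at -0.28 for Vps36 (adjusted p = 0.218), -0.27 for Chmp1a (0.103), -0.41 for Chmp2a (0.159) and -0.04 for Chmp3 (0.794). Chmp5, lower than blood on the authors' scaling, turned to 0.11. With plain totals no ESCRT-II or ESCRT-III member passed as lower in tumor. Chmp4c, Chmp6 and Chmp7 then passed as higher than blood, and Chmp2b, Chmp4c and Chmp5 as higher than BM. The Chmp2a call against BM was also lost without any 1 of 6 libraries (adjusted p = 0.0508 to 0.107). Chmp2b, an alternative to Chmp2a in the filament, had 0.09 (adjusted p = 0.675) against BM and -0.0043 (adjusted p = 0.989) against blood. Chmp7, which recruits ESCRT-III to the nuclear envelope, was lower in blood than in BM by -1.92 (adjusted p = 0.00542). Chmp6, a subunit of the same filament, was named after its values were seen and was higher in tumor than in blood by 0.60 (adjusted p = 0.0454), a call held in 9 of 19 alternatives and lost without blood replicate 1 or 3, BM replicate 3 or tumor replicate 1 or 3 (adjusted p = 0.0619 to 0.126). Against BM it had -0.13 (adjusted p = 0.673). Chmp4c was the ESCRT-III member that was higher in tumor than in both compartments, with 1, 0 and 0 reads in BM, 7, 9 and 3 in blood, and 150, 95 and 197 in tumor. CHMP4C delays the final cut between dividing cells. The ratio over summed reads was 15.2 for tumor to blood (95% counting interval 9.64 to 25.6) and 387 for tumor to BM (69.0 to 15301). The epithelial markers were at 2556 to 4838 RPM in the same tumor libraries, and their part in Chmp4c was not tested. Its paralog Chmp4b had 13 to 31 reads in BM, 22 to 35 in blood and 22 to 46 in tumor and passed no contrast. Vps4a and Vps4b, the ATPases that take the filament apart, passed neither a contrast nor the F-test (adjusted p = 0.653 and 0.833), although Vps4b passed both tumor contrasts with plain totals (0.54 and 0.48).

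**Figure D3:**
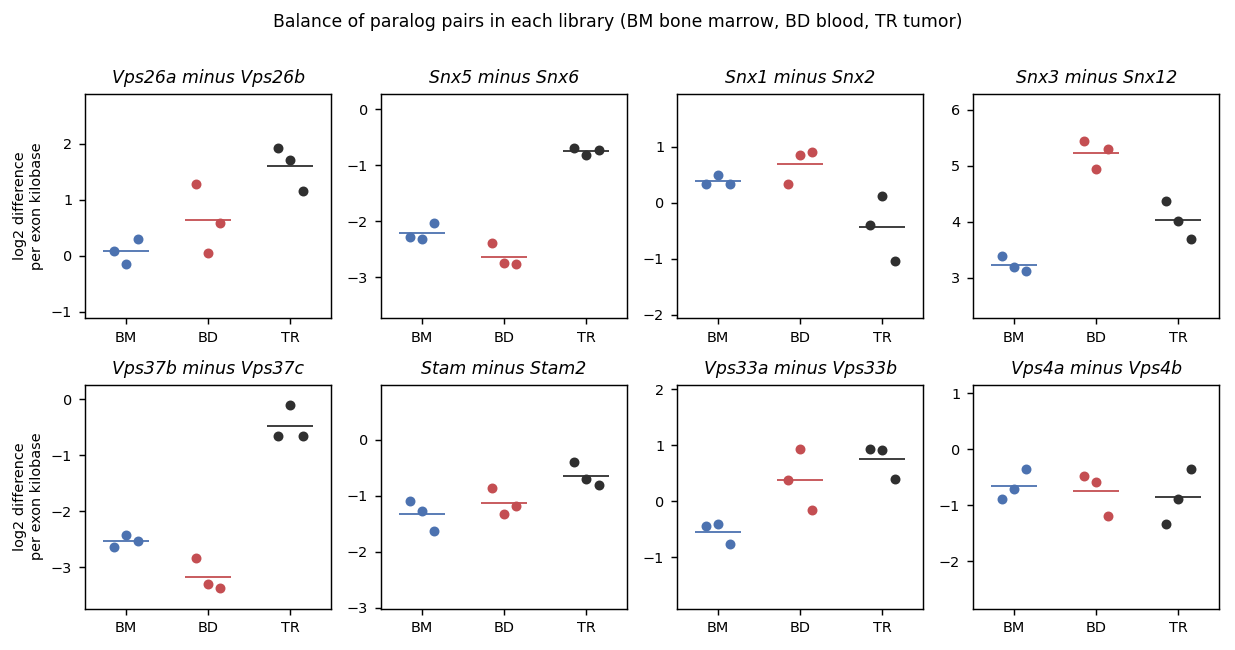
Log2 difference between the 2 members of 8 paralog pairs, per exon kilobase, in each library, with the group mean as a line; every panel spans the same range of log2 units. Snx5 over Snx6 and Vps37b over Vps37c are higher in every tumor library than in any other, Vps26a over Vps26b is highest in tumor by its mean but overlaps with blood, and the groups of Vps4a over Vps4b overlap.

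The balance of a pair within a library does not depend on library size. Over 15 paralog pairs and 3 contrasts, each comparison was an exact two-sided permutation test of 3 against 3 libraries, whose smallest possible p is 0.1. The smallest adjusted p over the 45 tests was 0.161, so this design cannot pass a threshold of 0.05 and the shifts are given as values. The mean log2 shift from BM to tumor was 2.06 for Vps37b over Vps37c, 1.52 for Vps26a over Vps26b, 1.46 for Snx5 over Snx6, 1.29 for Vps33a over Vps33b, 0.69 for Stam over Stam2 and -0.83 for Snx1 over Snx2. For Vps4a over Vps4b it was -0.21, with overlapping groups. The other pairs had -7.78 for Chmp4b over Chmp4c, -1.90 for Snx20 over Snx21, 1.75 for Vps13a over Vps13c and 0.87 for Snx9 over Snx18. Smaller shifts were -0.86 for Chmp2a over Chmp2b, -0.82 for Snx13 over Snx14, 0.79 for Snx3 over Snx12 and -0.38 for Vps37a over Vps37b. Tumor and BM did not overlap in 12 of the 15 pairs, so a gap between these groups was common.

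Of the 13 tethering members, 3 were higher and 1 was lower in tumor than in blood, where 33.8% and 21.1% of all genes were. In tumor against BM 1 was higher and 4 were lower (26.9% and 19.5% of all genes), and in blood against BM 0 were higher and 5 lower (13.7% and 18.1% of all genes). HOPS and CORVET tether late and early endosomes, and 8 members were grouped with them, among them Vps33b of a separate complex. Of these 8, Vps41 (1.08, adjusted p = 0.00424) and Vps8 (1.19, adjusted p = 0.00859) were higher in tumor than in blood. Vps39 (0.94, adjusted p = 0.00909) was higher in tumor than in BM. The Vps39 call was lost without tumor replicate 1 or 2 (adjusted p = 0.0549 and 0.0530), and the fold change of Vps8 turned to -0.39 with quantile normalization. Vps11, Vps16 and Vps18, which form the shared core of HOPS and CORVET together with Vps33a, passed no contrast on the authors' scaling. With plain totals Vps11, Vps16 and Vps33a were higher in tumor than in blood (0.78, 0.64 and 0.89) and than in BM (0.63, 0.58 and 0.68). Vps18 passed neither tumor contrast with these totals (0.47 and 0.35). Vps33b, the partner of VIPAS39 in a complex needed for platelet granules, had log2 FPKM of 0.46, 0.76 and 0.65 in BM, -0.22, -0.89 and -0.41 in blood, and -0.58, -0.39 and -0.33 in tumor. Blood and tumor overlapped and both lay below BM, at -1.13 ± 0.21 (SE, adjusted p = 0.00219) and -1.06 (adjusted p = 0.00199).

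The GARP and EARP complexes share VPS51, VPS52 and VPS53 and tether carriers that return from endosomes. Vps52 had 3.16, 3.08 and 3.19 in BM, 2.53, 2.80 and 2.77 in blood, and 1.57, 1.68 and 1.96 in tumor. It declined from BM through blood to tumor without overlap, with a log2 fold change of -1.41 ± 0.15 (SE, adjusted p = 2.41e-05) in tumor against BM and -0.96 (adjusted p = 2.59e-04) in tumor against blood. Vps53 had -1.72, -1.60 and -1.91 in BM, -2.68, -2.47 and -2.40 in blood, and -2.68, -2.52 and -2.38 in tumor. Blood and tumor covered the same range and both were below BM, at -0.78 (adjusted p = 0.00548 for blood and 0.00333 for tumor), the tumor call being lost with plain totals. Vps54, specific to GARP, had -0.33 (adjusted p = 0.110) in tumor against BM. Vps45, the SM protein that guides SNARE pairing on early endosomes and is mutated in a congenital neutropenia, had 50 to 60 reads in BM, 8, 10 and 31 in blood, and 86 to 152 in tumor. Its log2 fold change was 2.46 ± 0.47 (SE, adjusted p = 0.00114) in tumor against blood and -1.57 (adjusted p = 0.0257) in blood against BM, the latter held in 9 of 18 alternatives.

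**Figure D4:**
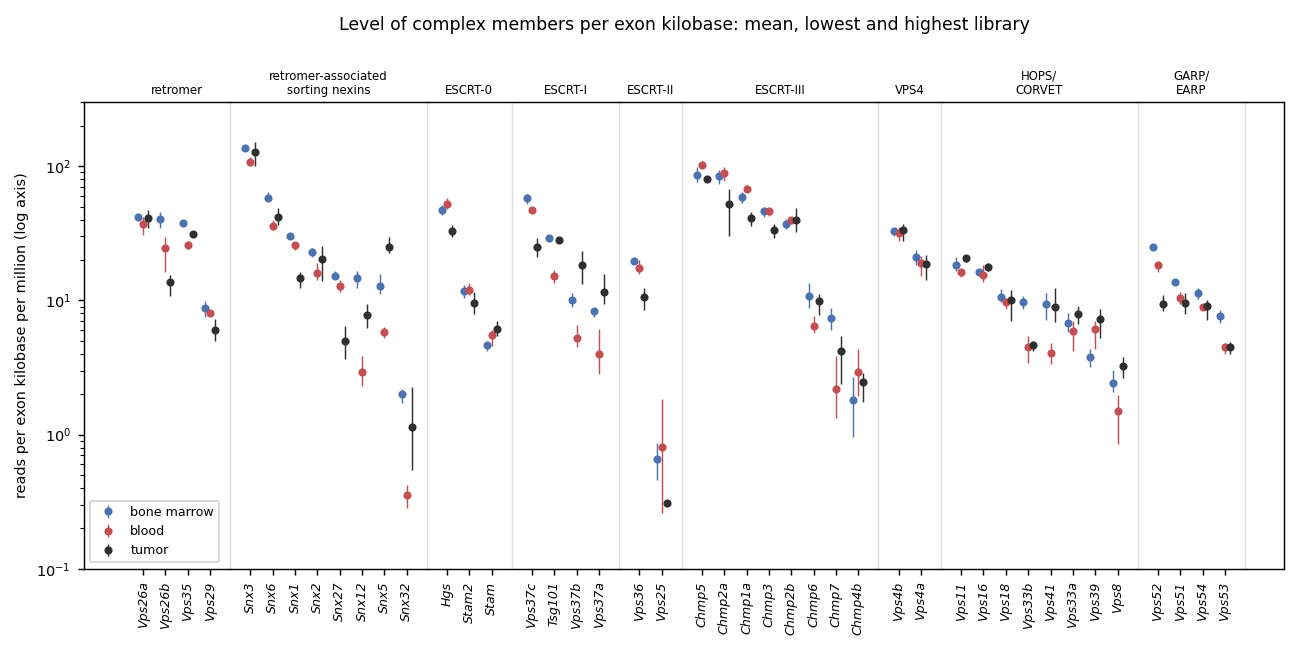
RPM of the scaled library per exon kilobase (log axis) of the members of each complex, as the mean of 3 libraries (points) and the lowest and highest library (bars). Snx3 and Chmp5 were highest in every compartment, and members with 0 reads in a library (Vps37d and Chmp4c) are not drawn. Vps33b, of a separate complex, is drawn with HOPS and CORVET.

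The VPS13 proteins carry lipids between membranes. Vps13c had log2 FPKM of -2.46, -2.62 and -2.69 in BM, -2.75, -3.22 and -3.15 in blood, and -4.29, -3.83 and -3.76 in tumor, with no overlap. Its log2 fold change was -1.37 ± 0.22 (SE, adjusted p = 5.09e-04) in tumor against BM and -0.92 (adjusted p = 0.00484) in tumor against blood. Vps13b was lower in blood (-0.76, adjusted p = 0.0108) and in tumor (-1.05, adjusted p = 0.00100) than in BM, and Vps13d in tumor (-0.73, adjusted p = 0.00651, lost with plain totals). Vps13a moved the other way between BM and blood, at 1.12 (adjusted p = 0.0477) from 29 to 63 reads a library, a call held in 7 of 18 alternatives. Vps72, the chromatin gene, had 1.31 to 1.43 in BM, 1.60 to 1.71 in blood and 1.65 to 2.13 in tumor, and was higher in tumor than in BM by 0.56 ± 0.16 (SE, adjusted p = 0.0146), a call lost without BM replicate 1 (adjusted p = 0.0510).

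In a few members the replicates of a compartment lay far apart. Of 178 combinations of a member and a compartment with at least 30 reads in each library, 13 spanned more than 1 log2 unit and 2 more than 2 log2 units, and the median span was 0.38. Snx20, a leukocyte sorting nexin that binds the selectin ligand PSGL-1, had 1194, 1133 and 1046 reads in BM, 75, 157 and 1236 in blood, and 117, 1203 and 988 in tumor. Snx18, which acts in endocytosis and autophagy, had 2522, 1591 and 2139 reads in BM, 314, 553 and 1347 in blood, and 573, 2332 and 2416 in tumor. In both genes, blood replicate 3 and tumor replicate 1 stood apart from the other replicates of their group. Neither gene passed a contrast, and the lowest adjusted p was 0.191 for Snx20 and 0.0791 for Snx18, both in blood against BM.

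**Figure D5:**
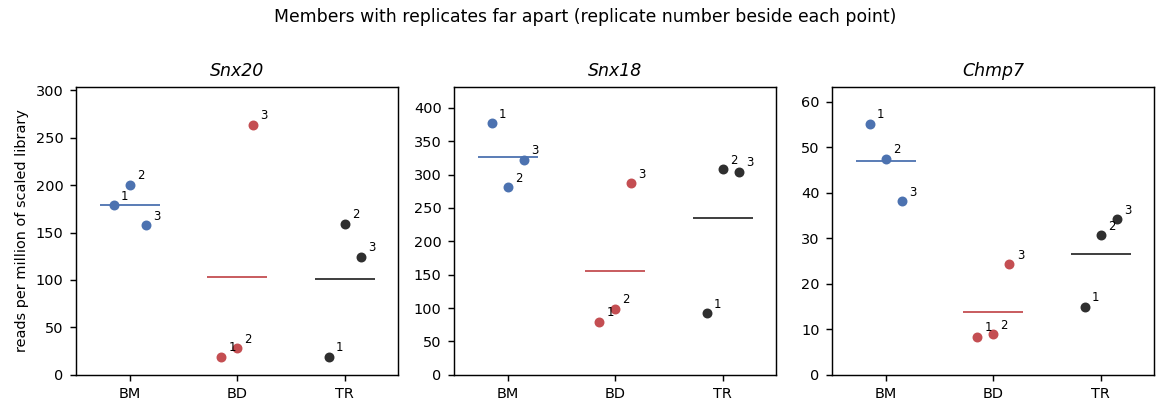
RPM of the scaled library of Snx20, Snx18 and Chmp7 in the 9 libraries, with the replicate number beside each point and the group mean as a line. Blood replicate 3 lies above the other blood libraries and tumor replicate 1 below the other tumor libraries in all 3 panels.

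Genes that work with the members were counted by lists of known partners, on the same fit. Over all genes tested, 33.8% were higher and 21.1% lower in tumor against blood, and 26.9% higher and 19.5% lower in tumor against BM, and the counts of these short lists are descriptions to be read against those shares. Among 14 ESCRT accessory genes, 2 were higher and 4 lower in tumor than in blood, and 5 higher and 4 lower than in BM. Mvb12b, an ESCRT-I subunit, was lower in tumor (-2.05 against BM, adjusted p = 5.72e-05, and -0.80 against blood, adjusted p = 0.0159), and Sdcbp, the exosome adaptor syntenin, was higher in tumor and in blood than in BM (0.89 and 0.95, adjusted p = 3.40e-04 and 4.09e-04). Of 20 genes of the WASH, retriever and CCC complexes, which act beside retromer, 19 were tested, with 5 higher and 5 lower against blood and 1 higher and 5 lower against BM. Dscr3, now called Vps26c and the retriever relative of Vps26a, was lower against both (-1.09 and -0.83, adjusted p = 5.53e-05 and 2.81e-04), and Fam21, the WASH subunit that binds VPS35, was lower against blood (-1.38, adjusted p = 3.50e-05). Of 10 tether partners, 3 were higher and 3 lower against blood and 2 higher and 3 lower against BM. Ankfy1, a RAB5 effector, had -1.25 (adjusted p = 3.30e-05) against blood. Vipas39, the VPS33B partner, was lower against BM by -0.99 (adjusted p = 3.15e-04) and, unlike Vps33b, also against blood by -0.82 (adjusted p = 9.15e-04).

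Of 14 phosphoinositide enzymes, which make or remove the lipid that PX domains bind, 2 were higher and 5 lower against blood and 2 higher and 8 lower against BM. Becn1, a subunit of the lipid kinase complex, was lower by -1.29 (adjusted p = 1.28e-05) against blood, and Mtmr2, a phosphatase of the same lipid, was higher by 3.12 (adjusted p = 5.43e-06). Of 13 early endosome genes, 3 were higher and 5 lower against blood and again against BM, with Eea1, a tether of early endosomes, at 2.18 (adjusted p = 1.33e-05) and Rab5b at -1.32 (adjusted p = 1.39e-05) against blood. Of 12 sorting receptors, the cargo of these routes, 8 were higher and 2 lower against blood (33.8% and 21.1% of all genes), and 6 higher and 3 lower against BM (26.9% and 19.5% of all genes). The 2 that were lower against blood were Sorl1 (-2.42, adjusted p = 1.23e-07) and Sort1 (-1.58, adjusted p = 2.71e-05), which are themselves retromer cargo.

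Promoter windows of 250 bases before the RefSeq start (GRCm38.p6) were found for 51 of the 73 members, and for 27025 genes in the reference table. In this paragraph all genes means these 27025, not the 17714 tested, and they were not matched to the members in expression or GC content. CACGTG, searched on both strands, occurred in 6 members (11.8%) and in 6.04% of all genes. GGGCGG occurred in 32 members (62.7%) against 33.0% of all genes, CCGGAAG in 9 (17.6%) against 7.07%, CCAAT in 15 (29.4%) against 34.5%, and TGACTCA in none of the 51 against 4.43%. Of the 13 members lower in tumor than in both compartments that had a window, 0 held CACGTG, and of the 3 of the higher group 2 held it, Snx5 and Snx8. The sites are shown in the gene's direction, with 10 bases on each side or up to the start, because they include these 2 genes and Vps16 and Vps33a, which encode core subunits of HOPS and CORVET. Capitals mark the motif. The annotations differ in where some of these genes begin. The Snx5 window lies inside the gene as GENCODE M21 gives it, with 122 of its 250 bases in Snx5 exons, although none of the 26 bases shown. The Vps33a window has 23 bases in its own first exon, which hold all 22 bases of the second Vps33a stretch and 11 of the first. The other stretches hold no exon base of their gene.
Snx5, chr2:144270607-144270632, minus strand: actgggggagCACGTGgcgtgccgct
Snx8, chr5:140389393-140389418, minus strand: cggccgcggcCACGTGgttggggcgt
Snx18, chr13:113618735-113618760, minus strand: tcccacccacCACGTGgtcactcaag
Vps16, chr2:130424292-130424317, plus strand: gcggcctcgtCACGTGaccccgaagg
Vps33a, chr5:123573028-123573053, minus strand: cgactcggatCACGTGaacgtcccgt
Vps33a, chr5:123573016-123573037, minus strand: aacgtcccgtCACGTGacgcag
The Vps26a site stands in the window printed above with that gene. The first base of the motif lay 50 bases before the start in Snx5, 100 in Snx8, 186 in Snx18, 18 in Vps16, and 28 and 12 in Vps33a. Beyond Snx5 and Snx8, the genes that held the motif did not belong to the higher group.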

How the data were processed

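Neutrophils were sorted and sequenced in 9 libraries, 3 per compartment, and grouped by the labels. The authors prepared cDNA with the SMARTSeq v2 protocol, mapped paired-end reads to GRCm38 with STAR 2.5.2b and counted them per GENCODE M7 gene with featureCounts 1.5.0, and their processing notes also name edgeR 3.8.6. They deposited log2 FPKM values, which already hold a small constant (0.221 reads in a library of mean size) and scaled library sizes. The built-in length equalled the genomic span for 39157 genes. Whether counting used strand is not given in the sources used here, so exon overlaps were counted on both strands in GENCODE M21.

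The members and the lists of partner genes and markers were chosen with earlier results of these data known. Whole reads were recovered for all 46517 genes from the steps between values (within 0.02 of a whole number), tested on simulated data. The depth, 4580807 to 7949367 reads a library, and counting intervals give counting error only. Genes with at least 5 reads in at least 1 library (17714) were tested on the deposited values in R 4.3.3 by limma 3.58.1 (lmFit and then eBayes, trended on mean log2 reads), the 3 compartments fitted together, with Benjamini-Hochberg adjustment over all genes at 0.05. The reads were not passed to a count model as the main test, because the deposited values are log2. No further pseudocount was added. Low counts were compared as ratios of summed reads with exact 95% intervals. Levels between genes used reads per exon kilobase. Values in every library are given for the retromer core, Hgs, Stam, Stam2, Tsg101 and the 4 members of each class with the smallest F-test p; other members given so were chosen after their values were seen, except the paralog pairs. Promoters are from RefSeq. The 9 libraries left out in turn, and filters, scalings, a prior of 2 reads, limma-voom and the replicate block were the alternatives.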

Additional observations from a re-analysis of the deposited data

How the results depend on the processing

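Of the calls in the main analysis, 15 of 33 in tumor against blood, 16 of 34 in tumor against BM and 12 of 25 in blood against BM held in every alternative that could test the gene, out of 19. Plain library totals kept 23, 22 and 23 of them. With these totals, 34 members were higher and 7 lower against blood (median 0.54), 24 higher and 11 lower against BM (median 0.23), and 18 higher and 7 lower against both. Of the 17714 genes, 7516 were higher and 2576 lower against blood, and 6603 higher and 2234 lower against BM. A filter on log2 FPKM over 0 tested 44 members among 7794 genes. It left 8 members higher against blood and 5 higher against BM, where 2207 and 1764 of the 7794 genes were. It left 1 member higher in blood against BM, 2 higher against both and 30 in the F-test. Quantile normalization gave 10 higher against blood, where 4242 of the 17714 genes were. A mean of at least 10 reads and a prior of 2 reads each gave 5 members higher in blood against BM. Leaving out 1 library gave 16 to 18 higher and 12 to 17 lower against blood, 6 to 13 higher and 20 to 24 lower against BM (6 without tumor replicate 1 and 7 without tumor replicate 2), 2 to 4 higher and 15 to 23 lower in blood against BM, 4 to 7 higher and 12 to 15 lower against both, and 38 to 46 in the F-test. Over all 17714 genes, leaving out 1 library gave 5300 to 5777 higher and 3332 to 3639 lower against blood. Against BM it gave 4118 to 4771 higher and 2906 to 3458 lower. Without both blood replicate 3 and tumor replicate 1, an alternative chosen after seeing the data, 7 members were higher against BM. Of the 17714 genes, 4201 were then higher against BM. For blood against BM, both contrasts together and the F-test, all genes were counted only in the main analysis. Where a library is left out, the others of its group are assumed to vary like the remaining libraries.

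Among values called in either analysis, single members turned sign with plain totals in tumor against blood (Chmp5 0.11, Snx10 0.34, Snx17 0.055 and Vps53 0.44) and against BM (Chmp5 0.36, Tsg101 0.39 and Vps26a 0.40). With quantile normalization it was Snx29 (-1.83 against blood and -0.92 against BM), Vps8 (-0.39 against blood), Snx9 (-1.5 and -1.17) and Vps13a (-1.60 against BM). The shift of 0.449 to 0.452 between the scalings is of the size needed for the sign changes with plain totals, and the cause of those with quantile normalization was not tested. A further 9 values against blood and 13 against BM that passed in neither analysis also turned sign with plain totals. Per member and contrast, 3506 values kept their direction and side of the threshold, 110 changed sign without a call in either analysis, 210 lost the call, 118 gained it and 13 reversed.

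Deviations from the group means of libraries with the same replicate number correlated by -0.10 to 0.0236, and those of libraries with other numbers by -0.098 to 0.085. These values show no shared deviation by number, but cannot show that the libraries were unpaired. The paper describes the BM and blood neutrophils as from the same mouse as the tumor neutrophils. Which libraries share mice is not given by the labels. With the replicate block, 16 members were higher and 16 lower in tumor against blood, and 11 and 23 in tumor against BM. Of the 17714 genes, 5914 were then higher and 3737 lower against blood, and 4713 and 3463 against BM. In blood against BM the block gave 4 members higher and 22 lower.

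With the length built into the deposited FPKM in place of the exon length, 204 of 219 levels moved by more than their SD, and only 4 of the 10 highest members in BM and in blood, and 5 in tumor, were the same.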

Other observations

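The pattern of Snx20 and Snx18, with blood replicate 3 at least 1.5 log2 units above both other blood libraries and tumor replicate 1 as far below both other tumor libraries, was chosen after its values were seen. It was shared by 19 of 9602 genes with a mean of at least 30 reads. Rac1, a small GTPase, had 257, 431 and 3263 reads in blood and 198, 2370 and 2426 in tumor. Lamp1, a lysosomal membrane protein, had 58, 358 and 1579 reads in blood and 487, 4953 and 5588 in tumor. Arhgef1, a RhoA exchange factor of leukocytes, had 449, 818 and 2176 reads in blood and 395, 1445 and 1619 in tumor. In BM these genes had 3250 to 3889, 2084 to 2879 and 3777 to 4692 reads.

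Among the sorting receptors, 2 that were higher in tumor stood out after their values were seen. Tfrc, the transferrin receptor, had a log2 fold change of 4.03 ± 0.33 (SE, adjusted p = 3.72e-06) against blood and 1.55 (adjusted p = 0.00281) against BM. M6pr, a mannose 6-phosphate receptor returned from endosomes by retromer and sorting nexins, had 1.32 ± 0.12 (SE, adjusted p = 6.11e-06) against blood and 1.13 (adjusted p = 2.15e-05) against BM. Appl2, a RAB5 effector on early endosomes, had 2.84 ± 0.30 (SE, adjusted p = 2.08e-05) against blood and 2.95 (adjusted p = 1.90e-05) against BM.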
